A study of Mus musculus with 4 samples.

Results

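The genes described here are 10 members of the NF-kB system that were taken by symbol from a table of 33677 gene symbols: the subunit genes Nfkb1, Nfkb2, Rel and Relb, the inhibitor genes Nfkbia and Nfkbie, and the feedback and response genes Tnfaip3, Tnfaip2, Birc3 and Traf1. They were compared between 2 Jagged1 libraries and 2 vector libraries of PyMT-A, a mouse mammary tumour cell line of the FVB/NJ strain. Jagged1 cells had been infected with a PMSCV retrovirus carrying Jagged1, a ligand of Notch receptors, and vector cells with the PMSCV-puro retrovirus. Both lines share the PyMT-A background and growth in DMEM with serum and antibiotics. The labels do not say whether a line is a clone or a pool of infected cells, or that its replicates were grown apart, so p-values measure only the spread between these libraries, which may be technical.

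NF-kB factors are dimers of Rel family subunits that wait in the cytoplasm bound to inhibitor proteins of the IkB family. Receptors for tumour necrosis factor, interleukin 1 and microbial products activate the IKK kinase complex, which marks the inhibitors for destruction and frees the dimers to enter the nucleus. The genes switched on there include those of the inhibitors, of ubiquitin-editing brakes and of the subunits themselves, so that their transcripts are commonly used as readouts of recent NF-kB activity. In mammary epithelial and tumour cells the pathway is known for control of survival and of chemokine genes.

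The deepest library was Jagged1 1, with 20835208 counts, and the shallowest vector 2, with 12136227. The ribosomal RNA gene Rn18s-rs5 held 0.982% of the counts in vector 1 and 0.0735% in vector 2. In Jagged1 1 and Jagged1 2 it held 0.178% and 0.081%, and the part of this difference in the values below was not tested. Levels are given as CPM, counts relative to library size after TMM scaling. A floor of 3 counts per library equals 0.144 to 0.247 CPM and covers counting error only. Jag1, the transduced gene, was at 275 and 324 CPM in the Jagged1 libraries, against 10.5 and 9.12 CPM in the vector libraries, and it was the 1 gene of 13299 tested that passed an adjusted p of 0.05 in edgeR, a call that ended without vector 1 or without vector 2 (adjusted p = 0.24 and 0.153). Of 6 markers of mammary epithelium, summed to between 3370 and 3954 CPM per library, 5 were above the floor in every library, and Krt19 was at or near 0. The sum of 8 leukocyte and macrophage markers was 1.79 and 4.84 CPM in the Jagged1 libraries and 1.72 and 4.72 CPM in the vector libraries. Of these, Cd3e was at 0, Ptprc, Tyrobp and Itgam at no more than 3 counts in any library, and the macrophage gene Csf1r was read 32 and 23 times in Jagged1 cells and 10 and 16 times in vector cells. Cd68 was read 3 and 22 times in Jagged1 cells and 15 and 32 times in vector cells, and Adgre1 0 and 16 times in Jagged1 cells and 0 and 6 times in vector cells. Of 6 fibroblast markers the sum was 10.5 and 42.97 CPM in the Jagged1 libraries and 4.43 and 7.003 CPM in the vector libraries. Lum was at 0 and Thy1 at no more than 1 count, while Pdgfra, Pdgfrb and Dcn had higher CPM in both Jagged1 libraries than in either vector library, and Col1a1 in Jagged1 2 alone. Col1a1 was read 36 and 376 times in Jagged1 cells and 16 and 24 times in vector cells, and Pdgfra 166 and 93 times in Jagged1 cells and 51 and 61 times in vector cells. Pdgfrb was read 9 and 103 times and Dcn 6 and 23 times in Jagged1 cells, and both were at 0 in vector cells. The sum of 4 endothelial markers was 0.581 and 6.35 CPM in the Jagged1 libraries and 0.661 and 2.85 CPM in the vector libraries, most of it Cdh5 in the second library of each line. The part of these marker levels in the values below was not tested.

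RefSeq promoter sequences (250 bases before to 50 after a gene start, GRCm38.p6) were matched for 8 of the 10 genes, all but Nfkb1 and Relb. They are shown because several of the genes hold in them the letters of a NF-kB motif, searched as GGG, any 2 bases and TTTCC on both strands (GGAAA, any 2 bases and CCC on the opposite strand). In 4 of the 8 genes at least 1 window held a match, against 1.89% of all 27025 genes with a window. By window it was 6 of 11, against 1.63% of all 32851 windows. The genes were chosen as members of the NF-kB system, so these shares are a description and not a test. Capitals mark the match in 1 window each of these 4 genes, chr12:55492598-55492897 (minus strand) for Nfkbia, chr10:19015361-19015660 (minus strand) for Tnfaip3, chr11:23770920-23771219 (minus strand) for Rel and chr19:46304487-46304786 (plus strand) for Nfkb2.
Nfkbia: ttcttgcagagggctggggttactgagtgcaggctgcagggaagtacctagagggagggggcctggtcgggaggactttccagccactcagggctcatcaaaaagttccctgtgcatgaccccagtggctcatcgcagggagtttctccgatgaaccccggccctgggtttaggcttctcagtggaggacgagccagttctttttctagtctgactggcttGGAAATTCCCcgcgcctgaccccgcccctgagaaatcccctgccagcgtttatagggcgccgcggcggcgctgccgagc
Tnfaip3: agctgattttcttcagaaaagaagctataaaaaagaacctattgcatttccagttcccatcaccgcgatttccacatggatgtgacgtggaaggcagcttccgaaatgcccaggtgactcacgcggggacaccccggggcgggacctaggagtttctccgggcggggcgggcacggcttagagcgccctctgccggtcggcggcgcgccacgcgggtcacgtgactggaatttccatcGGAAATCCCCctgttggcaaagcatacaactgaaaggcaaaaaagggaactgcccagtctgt
Rel: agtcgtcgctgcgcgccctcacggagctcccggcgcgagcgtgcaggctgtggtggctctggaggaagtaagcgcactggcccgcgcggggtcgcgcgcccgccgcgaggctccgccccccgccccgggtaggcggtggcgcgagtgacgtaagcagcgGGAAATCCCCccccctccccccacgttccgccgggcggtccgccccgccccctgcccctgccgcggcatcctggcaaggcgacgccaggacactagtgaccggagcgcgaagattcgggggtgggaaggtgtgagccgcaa
Nfkb2: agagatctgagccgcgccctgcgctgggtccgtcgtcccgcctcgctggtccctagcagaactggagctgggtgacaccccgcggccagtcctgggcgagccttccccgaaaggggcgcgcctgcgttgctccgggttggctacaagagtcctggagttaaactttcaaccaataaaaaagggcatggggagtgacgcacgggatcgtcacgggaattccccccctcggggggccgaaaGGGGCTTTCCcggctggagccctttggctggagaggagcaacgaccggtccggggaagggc

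The first letter of the match lay at position -29 from the gene start in Nfkbia, -12 in Tnfaip3, -91 in Rel and -11 in Nfkb2. Nfkb2 has a further match, GGGACTTTCC, that 2 overlapping windows of its downstream starts share. Windows of Nfkbie, Tnfaip2, Birc3 and Traf1, and the other window of Tnfaip3, did not hold these letters. Other forms of the motif were not searched, so unmarked stretches and windows without a match may hold them. A match describes the sequence and is not a measured binding site.

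None of the 10 genes passed the adjusted threshold of 0.05 between Jagged1 and vector cells (edgeR's quasi-likelihood test with Benjamini-Hochberg adjustment over 13299 genes, adjusted p = 1.00 for each), where 0.00752% of all tested genes did. In such bulk samples fewer cells that express a gene and less of its RNA per cell cannot be told apart. At an unadjusted p under 0.05 stood 1 of the 10, Traf1, against 3.96% of all tested genes. Traf1 passed the low-count filter through its vector libraries alone, so its place in these counts was tied to a difference. DESeq2 called 0 of the 10, beside 47 of the 13299 genes. It had 0 of the 10 at an unadjusted p under 0.05, where the share of all tested genes was not counted. Estimates were small except for Traf1, with 3 positive and 7 negative log2 fold changes and a median of -0.10; over all tested genes 50.5% were negative and the median was -0.0025. In 2 genes, Nfkb2 and Traf1, both Jagged1 libraries had lower levels than either vector library, and in 0 both had higher levels; over all tested genes the shares were 15.1% below and 13.9% above. With levels scaled by total counts alone, a choice made after the data were seen, 1 gene was below, since Nfkb2 then overlapped. For 8 of the 10 genes the 95% interval of the log2 fold change, from the edgeR fit, stayed between -1 and 1, as it did for 65.7% of all tested genes.

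**Figure D1:**
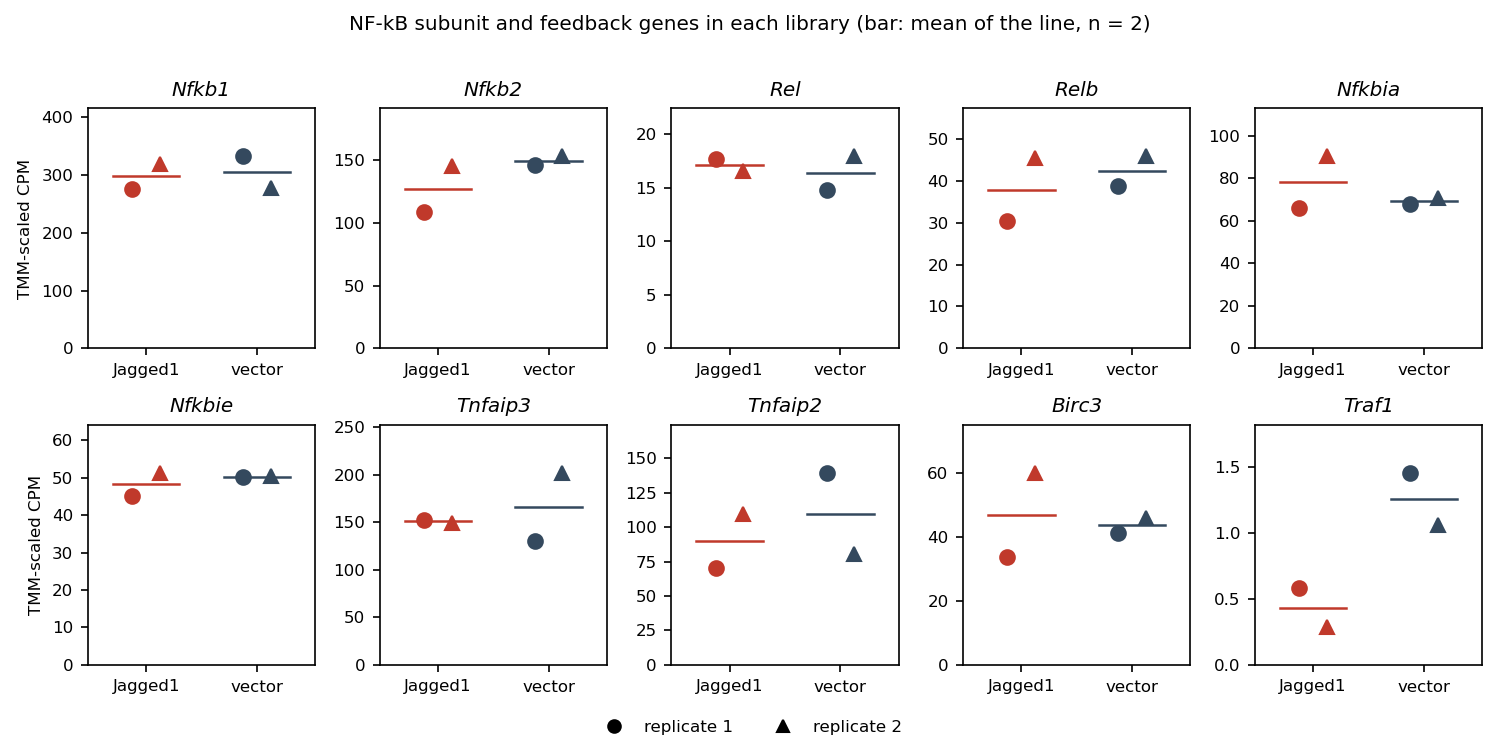
TMM-scaled CPM (vertical axes, each from 0) of the 10 genes in each library, with Jagged1 libraries in red and vector libraries in blue-grey, circles for replicate 1, triangles for replicate 2 and a bar at the mean of each line (n = 2). Points of both lines overlap in all panels except Nfkb2 and Traf1, and Jagged1 1 is the lowest of the 4 points in 7 panels.

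Among the subunits, Nfkb1 encodes a precursor that is processed to a DNA-binding subunit of the canonical pathway (chr3:135584655-135691547, minus strand, GRCm38). Nfkb1 was at 276 and 319 CPM in Jagged1 cells, against 332 and 277 CPM in vector cells, a log2 fold change of -0.033 ± 0.17 (SE; 95% interval -0.47 to 0.40). Each line thus held 1 library near 277 CPM and 1 above 300 CPM, and the lines overlapped.

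Nfkb2 encodes the precursor processed in the non-canonical pathway (chr19:46304320-46312385, plus strand). Its levels were 109 and 145 CPM in Jagged1 cells, against 146 and 153 CPM in vector cells, with a log2 fold change of -0.24 ± 0.19 (95% interval -0.71 to 0.24). The separation of the lines rested on Jagged1 1, since Jagged1 2 was less than 1 CPM under vector 1; without Jagged1 1 the estimate was -0.041 and without Jagged1 2 it was -0.46. The exons of Nfkb2 overlap those of Psd, on the opposite strand, over 299 bases and those of AC114539.1 over 531 bases; Psd had 241 and 195 counts in Jagged1 cells, against 169 and 176 counts in vector cells, and without strand the reads in the overlap could not be told apart.

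Relb encodes the partner of the processed Nfkb2 product (chr7:19606217-19629438, minus strand). It was at 30.3 and 45.4 CPM in Jagged1 cells, against 38.7 and 45.8 CPM in vector cells (log2 fold change -0.16 ± 0.24; 95% interval -0.76 to 0.44). Jagged1 2 and vector 2 were close to each other at the top, and Jagged1 1 was the lowest.

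Rel encodes c-Rel, best known from lymphocytes (chr11:23736847-23770970, minus strand). It had 17.7 and 16.5 CPM in Jagged1 cells, against 14.7 and 17.9 CPM in vector cells (log2 fold change 0.068 ± 0.20; 95% interval -0.43 to 0.57), and the Jagged1 libraries lay between the vector libraries. Rela, the main activating subunit of the canonical pathway and not one of the 10, was at 91.4 and 106 CPM in Jagged1 cells, against 108 and 114 CPM in vector cells (log2 fold change -0.17 ± 0.16, adjusted p = 1.00, edgeR). Its estimate was -0.067 without Jagged1 1 and -0.28 without Jagged1 2.

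Levels of different genes were compared per kilobase of annotated exon length. On that scale Rela was the highest of the 5 subunit genes, at 29.8 and 34.6 CPM per kilobase in Jagged1 cells and 35.2 and 37.2 in vector cells. Nfkb2 followed at 23.7 and 31.7 CPM per kilobase in Jagged1 cells and 31.9 and 33.3 in vector cells, and Nfkb1 at 22.9 and 26.5 in Jagged1 cells and 27.5 and 22.98 in vector cells. The ranges of these neighbours over the 4 libraries overlapped, and the ranges alone do not resolve their order. Within each of the 4 libraries Rela was above Nfkb2, and Nfkb2 above Nfkb1. Relb, at 7.81 and 11.7 CPM per kilobase in Jagged1 cells and 9.95 and 11.8 in vector cells, was below all of them in every library. Rel was the lowest, at 2.37 and 2.21 CPM per kilobase in Jagged1 cells and 1.97 and 2.40 in vector cells. The place of Nfkb1 depended on the length used, because its annotated exons add up to 12061 bases but its longest transcript to 4149. Per kilobase of the longest transcript Nfkb1 was the highest in every library, at 66.6 and 76.9 CPM per kilobase in Jagged1 cells and 80.03 and 66.8 in vector cells, while Relb and Rel kept the lowest places.

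**Figure D2:**
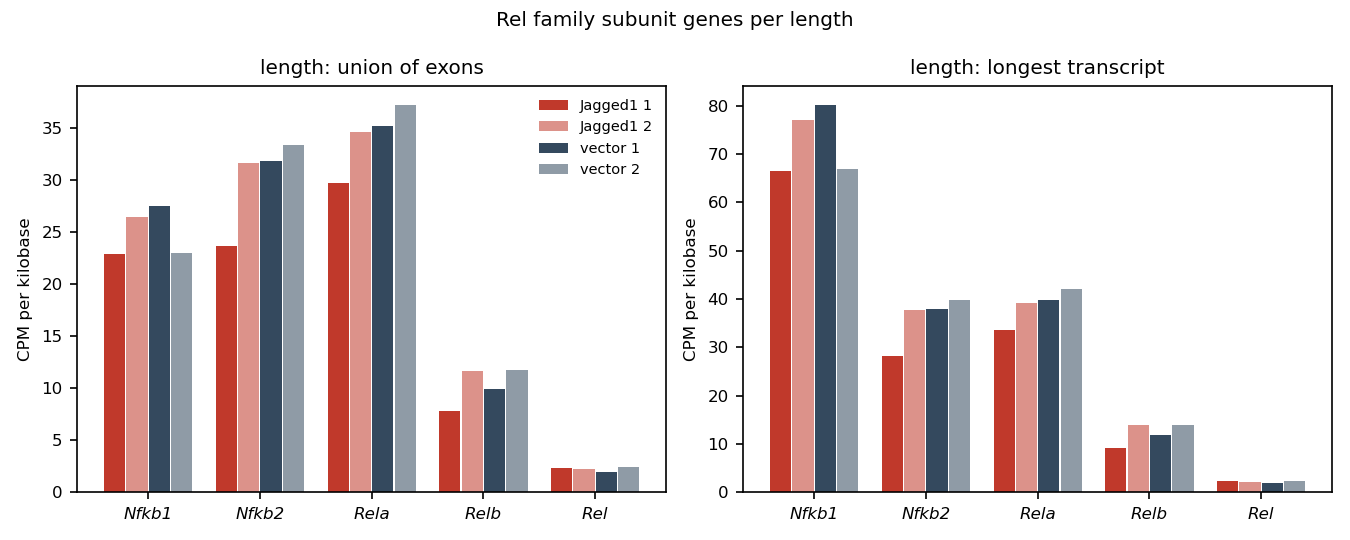
CPM per kilobase (vertical axes, from 0) of the 5 Rel family subunit genes in each library, Jagged1 in red and vector in blue-grey, with the second replicate in the paler shade; the left panel divides by the union of annotated exons and the right panel by the longest transcript. Relb and Rel are the lowest in both panels, and Nfkb1 stands below Rela and Nfkb2 in every library on the left and highest on the right.

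Of the inhibitors, Nfkbia encodes IkB-alpha, which NF-kB itself induces and which exports the dimers from the nucleus (chr12:55489410-55492647, minus strand). Nfkbia was at 66.3 and 90.3 CPM in Jagged1 cells, against 67.8 and 70.7 CPM in vector cells (log2 fold change 0.18 ± 0.20; 95% interval -0.32 to 0.67). The vector libraries lay close together, and the Jagged1 libraries lay on either side of them. Without Jagged1 2 the estimate was -0.061 and without Jagged1 1 it was 0.38. Nfkbie encodes IkB-epsilon, a slower inhibitor of the same family (chr17:45555703-45563169, plus strand). It had 45.2 and 51.3 CPM in Jagged1 cells, against 50.2 and 50.4 CPM in vector cells (log2 fold change -0.062 ± 0.16; 95% interval -0.45 to 0.33), again with the Jagged1 libraries on either side.

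Tnfaip3 encodes a ubiquitin-editing enzyme that switches off signalling from the tumour necrosis factor receptor complex (chr10:19000910-19015657, minus strand). It was at 153 and 149 CPM in Jagged1 cells, against 131 and 202 CPM in vector cells (log2 fold change -0.14 ± 0.24; 95% interval -0.73 to 0.45). The Jagged1 libraries nearly coincided, and both lay between the vector libraries, so the estimate was -0.40 without vector 1 and 0.20 without vector 2.

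Tnfaip2 is a gene induced by tumour necrosis factor whose product is known for membrane protrusions and nanotubes (chr12:111442469-111455018, plus strand). It was at 70.3 and 110 CPM in Jagged1 cells, against 139 and 80.4 CPM in vector cells (log2 fold change -0.29 ± 0.34; 95% interval -1.14 to 0.56). The highest library was vector 1, and without it the estimate was 0.18. Its exons overlap those of Gm40578, on the opposite strand, over 314 bases.

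Birc3 encodes an inhibitor-of-apoptosis protein that acts as a ubiquitin ligase in tumour necrosis factor signalling (chr9:7848699-7873186, minus strand). Birc3 had 33.8 and 60.1 CPM in Jagged1 cells, against 41.3 and 46.0 CPM in vector cells (log2 fold change 0.10 ± 0.29; 95% interval -0.64 to 0.84). The lowest and the highest library were both Jagged1, and the estimate was 0.46 without Jagged1 1 and -0.37 without Jagged1 2.

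Traf1 encodes an adaptor that binds TRAF2 and the inhibitor-of-apoptosis proteins at receptors of the tumour necrosis factor family (chr2:34941750-34961772, minus strand). It was read 12 and 4 times in Jagged1 cells, with exact 95% Poisson intervals of 6.20 to 20.96 and 1.09 to 10.2 counts. In vector cells it was read 22 and 13 times, with intervals of 13.8 to 33.3 and 6.92 to 22.2 counts, and these intervals cover counting error only. The levels were 0.581 and 0.289 CPM in Jagged1 cells, against 1.45 and 1.06 CPM in vector cells, so the lines did not overlap. The log2 fold change was -1.48 ± 0.58 (95% interval -2.94 to -0.021; unadjusted p = 0.0477, adjusted p = 1.00, edgeR), the largest estimate in size among the 10, at the lowest level. Traf1 passed the low-count filter through its vector libraries alone, since both Jagged1 libraries were under the 0.686 CPM that the filter asks for, so its entry in the test was tied to a difference. With 1 library left out the estimate ranged from -2.10 without Jagged1 1 to -1.11 without Jagged1 2, and it stayed negative.

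**Figure D3:**
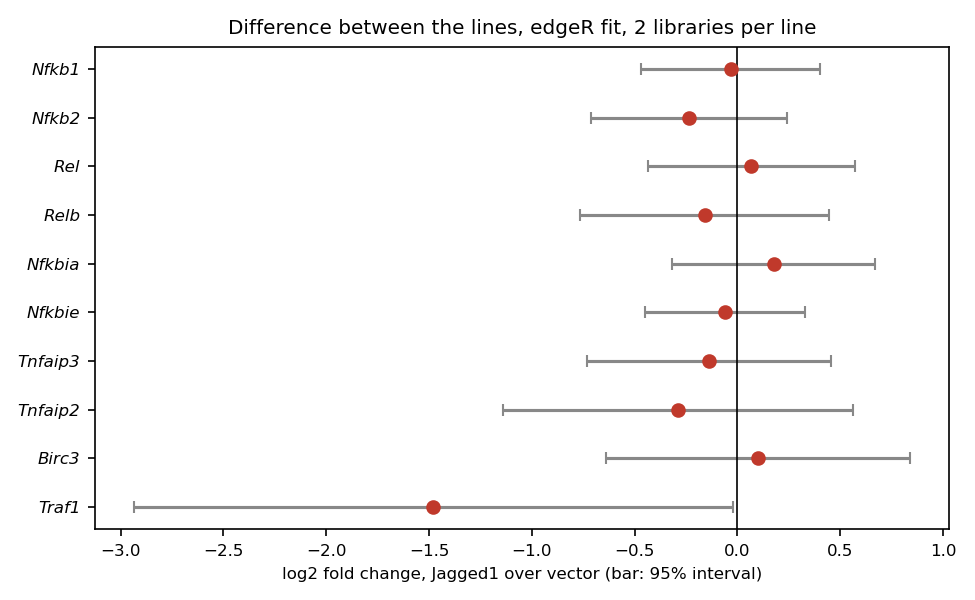
Log2 fold change of Jagged1 over vector cells (horizontal axis) for the 10 genes, with points for the edgeR estimate and bars for its 95% interval (2 libraries per line). All intervals except that of Traf1 include 0, and that of Traf1 reaches to -0.021.

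Libraries of the same line differed by more than the line means in most of these genes, as in most genes of the whole table. On the log2(CPM + 0.5) scale the ratio of the Jagged1 libraries exceeded the ratio of the line means in 8 of the 10 genes, all but Tnfaip3 and Traf1, where 67.3% of all tested genes did so. Taking the larger of the 2 within-line ratios the count was 9 of 10, against 81.4% of all tested genes. Jagged1 1 was the lowest of the 4 libraries in 7 of the 10 genes, Nfkb1, Nfkb2, Relb, Nfkbia, Nfkbie, Tnfaip2 and Birc3, against 25.3% of all tested genes; for Nfkb1 the margin over vector 2 was under 1 CPM. The median log2 ratio of Jagged1 1 to Jagged1 2 was -0.31 over the 10 genes, and 0.00033 over all tested genes. The sign of the log2 fold change turned in 8 of the 10 genes when 1 library was left out, and held in Nfkb2 and Traf1. The share of all tested genes whose sign turned was not counted, so this is no trait of the 10.

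The rest of the pathway, in 6 lists, held no call either. At an unadjusted p under 0.05 stood 1 of 12 ubiquitin-editing and brake genes and 6 of 22 other target genes. In the remaining lists 0 genes did, beside 3.96% of all tested genes. These lists were chosen with earlier results of these data known, so the counts are a description only. DESeq2 called 1 gene of the 6 lists, Ptgs2, beside 47 of all 13299 tested genes. Among 6 further subunit, IkB and repressor genes 0 passed in either direction, with 4 positive and 2 negative estimates and a median of 0.0050. Nfkbiz, the gene of the nuclear co-activator IkB-zeta, was at 113 and 164 CPM in Jagged1 cells, against 105 and 108 CPM in vector cells (log2 fold change 0.38 ± 0.22), and its estimate was 0.086 without Jagged1 2. Bcl3, which encodes a nuclear IkB protein, was at 29.8 and 56.4 CPM in Jagged1 cells, against 32.2 and 27.4 CPM in vector cells (0.53 ± 0.33), and only its second Jagged1 library stood apart; without it the estimate was -0.00024. Nfkbib, the gene of IkB-beta, was at 35.7 and 37.1 CPM in Jagged1 cells, against 47.2 and 38.4 CPM in vector cells (-0.23 ± 0.17), with estimates of -0.055 without vector 1 and -0.38 without vector 2.

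Of 21 kinases and adaptors 0 passed, with 11 positive and 10 negative estimates and a median of 0.0038. The genes of the IKK complex had estimates near 0. Ikbkb was at 100.3 and 106 CPM in Jagged1 cells, against 95.9 and 94.6 CPM in vector cells (log2 fold change 0.11 ± 0.14). Chuk stood at -0.012 ± 0.20 and Ikbkg, the regulatory subunit, at 0.036 ± 0.16. Map3k14, the kinase of the non-canonical pathway, was at -0.074 ± 0.21, and the genes that hold its protein level down were at 0.19 ± 0.23 for Birc2, -0.17 ± 0.15 for Traf2 and -0.081 ± 0.14 for Traf3. The smallest unadjusted p of this list belonged to Myd88, the adaptor of Toll-like and interleukin 1 receptors, at 36.6 and 43.3 CPM in Jagged1 cells, against 47.9 and 48.2 CPM in vector cells (-0.27 ± 0.16, unadjusted p = 0.16, adjusted p = 1.00, edgeR). Ripk1, the receptor-interacting kinase gene, was at -0.17 ± 0.15.

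Among 12 genes of ubiquitin editing and other brakes 0 passed, 3 were positive and 9 negative, and the median was -0.050. The list is not of brakes alone, since Rnf31, Rbck1 and Sharpin encode the linear ubiquitin ligase, which is not a brake. Rnf11, whose product works with TNFAIP3, had 127 and 172 CPM in Jagged1 cells, against 210 and 240 CPM in vector cells (log2 fold change -0.59 ± 0.20, unadjusted p = 0.0299, adjusted p = 1.00, edgeR), and the lines did not overlap. Without Jagged1 1 the estimate was -0.39. Nlrc5, known as a regulator of MHC class I genes, stood at -0.54 ± 0.30, with estimates of -0.17 without Jagged1 1 and -1.02 without Jagged1 2. Rnf31, a subunit of the linear ubiquitin ligase, stood at -0.28 ± 0.15.

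Of 11 receptor genes 10 were tested and 0 passed, with 5 positive and 5 negative estimates and a median of 0.094, which was 0.25 without Jagged1 1 and -0.058 without Jagged1 2. Tnfrsf1a, the main receptor of tumour necrosis factor, was at 70.8 and 97.6 CPM in Jagged1 cells, against 88.7 and 81.8 CPM in vector cells (log2 fold change -0.019 ± 0.20). Tnfrsf1b, the second receptor, was at 90.4 and 99.0 CPM in Jagged1 cells, against 78.9 and 73.9 CPM in vector cells (0.31 ± 0.15), and did not overlap. Il1r1, the signalling receptor of interleukin 1, was low, at 4.26 and 3.18 CPM in Jagged1 cells, against 2.38 and 1.22 CPM in vector cells (1.04 ± 0.47); without vector 1 the estimate was 1.62 and without vector 2 it was 0.64. Tnfrsf12a, the receptor of TWEAK, stood at -0.56 ± 0.25, and at -0.95 without Jagged1 1 and -0.25 without Jagged1 2.

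Of 8 ligand genes 2 had enough counts to be tested. Tnf was read 1 and 10 times in Jagged1 cells and 2 and 2 times in vector cells, so in 3 of the 4 libraries it was under the floor. Il1a, which activates NF-kB through Il1r1, was at 8.90 and 58.8 CPM in Jagged1 cells, against 35.8 and 50.9 CPM in vector cells (log2 fold change -0.37 ± 0.80). Its low library was Jagged1 1, the same library in which 7 of the 10 genes were lowest; the part of Il1a in those values was not tested. Without Jagged1 2 the estimate was -2.28 (adjusted p = 0.0162, edgeR), a fit in which the lone Jagged1 library is assumed to vary like the vector libraries, and without Jagged1 1 it was 0.44. Il1b was near the floor, at 0.290 and 0.867 CPM in Jagged1 cells, against 0.198 and 0.814 CPM in vector cells.

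Of 25 other genes that NF-kB is known to induce, 22 were tested and 0 passed, with 5 positive and 17 negative estimates and a median of -0.33, which was -1.002 without Jagged1 2 and -0.22 without vector 1. In 10 of the 22 both Jagged1 libraries had lower levels than either vector library, and in 0 higher, beside 15.1% and 13.9% of all tested genes. Jagged1 1 was the lowest of the 4 libraries in 17 of the 22, beside 25.3% of all tested genes. The list was chosen with earlier results of these data known, so these counts are a description and not a test. The smallest unadjusted p-values belonged to 3 genes with both Jagged1 libraries below. Ptgs2, which makes the inducible cyclooxygenase of prostaglandin synthesis, was at 131 and 137 CPM in Jagged1 cells, against 236 and 252 CPM in vector cells (log2 fold change -0.86 ± 0.15, adjusted p = 0.72, edgeR). Ccl5, a chemokine for T cells and monocytes, was at 2.76 and 3.61 CPM in Jagged1 cells, against 9.65 and 9.12 CPM in vector cells (-1.56 ± 0.31, adjusted p = 0.894). Cxcl2, a neutrophil chemokine, was at 0.774 and 1.59 CPM in Jagged1 cells, against 5.49 and 4.48 CPM in vector cells (-2.10 ± 0.48, adjusted p = 0.914).

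A second group of targets differed mainly between the Jagged1 libraries. These genes were picked after their values were seen and are given as a description. Lcn2, an iron-binding defence protein, was at 1366 and 5763 CPM in Jagged1 cells, against 2211 and 3310 CPM in vector cells. The complement gene C3 was at 628 and 2416 CPM in Jagged1 cells, against 876 and 1185 CPM in vector cells. Cxcl5, another neutrophil chemokine, was at 380 and 2416 CPM in Jagged1 cells, against 1105 and 1338 CPM in vector cells. In all 3 the Jagged1 libraries lay on either side of both vector libraries, the pattern also seen for Nfkbia, Nfkbie and Birc3 with smaller ratios. The share of all tested genes with this pattern was not counted, and a link between these genes was not tested.

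**Figure D4:**
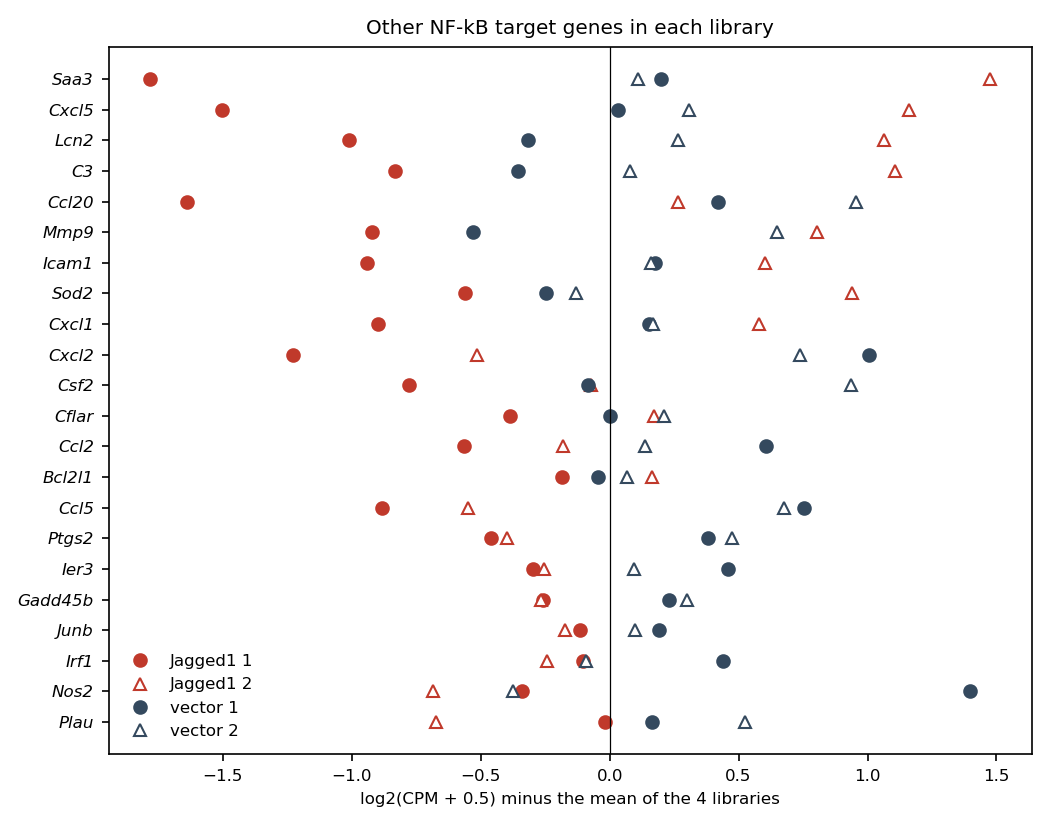
Levels of the 22 tested other NF-kB target genes in each library, as log2(CPM + 0.5) minus the gene's mean over the 4 libraries (horizontal axis), ordered by the difference between the Jagged1 libraries; red marks Jagged1, blue-grey vector, filled circles replicate 1 and open triangles replicate 2. Jagged1 1 is farthest left in 17 of the 22 genes, and in the upper rows except Ccl20 Jagged1 2 is on the right. In Ccl20 Jagged1 2 lies left of both vector libraries.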

How the data were processed

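Poly(A) RNA was sequenced in 4 libraries, and the authors deposited the raw counts of reads for each gene, neither normalized nor pooled, in a column for every library. The submitters' processing notes name STAR 2.6.0c, featureCounts 1.6.2 and mm10 (GRCm38), with the annotation release and strand setting of the counting not given in the sources used. Counts were filtered with filterByExpr (minimum count 10), scaled with TMM and tested with edgeR 4.0.16 (quasi-likelihood, robust, R 4.3.3), Jagged1 over vector, with Benjamini-Hochberg adjustment over 13299 genes and a threshold of 0.05. SE is the absolute log2 fold change over the square root of F. The alternatives used DESeq2 1.42.0, limma 3.58.1, other filters and scalings, and libraries left out; the script was tested on simulated data. An exact permutation test of 2 against 2 libraries cannot go below p = 0.333, so none was run. Lengths came from GENCODE. Members and lists were chosen with earlier results of these data known. Pathway genes named by rule were Jag1, the 10 members, 15 fixed pathway genes, and the 3 genes of smallest p of each list. Outside this rule, Lcn2, C3, Cxcl5, Ikbke and Tnip1 were named after their values were seen.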

Additional observations from a re-analysis of the deposited data

How the results depend on the processing

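No member passed the adjusted threshold under any of the 10 alternatives. Unadjusted, Traf1 was under 0.05 with RLE factors, limma-voom, no low-count filter and the replicate block, while 0 members were with DESeq2, with a mean of at least 5 CPM (which drops Traf1) or with any 1 library left out. With RLE factors, limma-voom and the replicate block, Traf1 entered the test through its vector libraries alone. The members' median was -0.043 with the 5 CPM minimum and ranged from -0.26 to 0.023 with 1 library left out. The number of genes called over the whole table was 47 with DESeq2 (19 higher, 28 lower) and 169 without the low-count filter (101 higher, 68 lower). It was 17 with the replicate block (7 higher, 10 lower), and 0 to 193 with 1 library left out (0 to 142 higher, 0 to 51 lower). Jag1 lost its call without vector 1 or vector 2 (log2 fold change 5.06 and 4.82, adjusted p = 0.24 and 0.153, edgeR). Replicate numbers are not said to pair the libraries; deviations of same-numbered libraries correlated at 0.43 over tested genes, and the replicate block called 0 of the 10 members. Other target genes called numbered 1 with DESeq2 (Ptgs2), 3 without the filter (Ptgs2, Ccl5 and Cxcl2) and 0 to 3 with 1 library left out, and ligands 0 to 1 (Il1a). With 1 library left out the log2 fold change ranged from -0.17 to 0.12 for Nfkb1, -0.045 to 0.21 for Rel, -0.47 to 0.10 for Relb, -0.061 to 0.38 for Nfkbia and -0.15 to 0.026 for Nfkbie. It ranged from -0.40 to 0.20 for Tnfaip3, -0.64 to 0.18 for Tnfaip2 and -0.37 to 0.46 for Birc3. Among other genes the ranges were -0.00024 to 0.92 (Bcl3), -0.21 to 0.23 (Chuk), -0.066 to 0.13 (Ikbkg), -0.25 to 0.08 (Map3k14), -0.032 to 0.38 (Birc2), -0.27 to 0.19 (Tnfrsf1a), -2.28 to 0.44 (Il1a) and -0.74 to 1.46 (Il1b). Chuk was also at 0.0063 with limma-voom, 0.0050 with the 5 CPM minimum and 0.0042 with the replicate block, and Tnfrsf1a at 0.0019 with the 5 CPM minimum. With total-count scaling 1 member lay below both vector libraries. By longest transcript the subunits ranked Nfkb1 1, Rela 2 and Nfkb2 3. With 1 library left out a line has a lone library, which the fit assumes to vary like the other line. The cause of these changes was not tested.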

Other observations

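Ratios of counts within a library do not depend on the scaling, and 8 pairs of genes were computed, chosen after the data were in hand. In 3 pairs both Jagged1 libraries were above both vector libraries, and in 0 below. The count ratio of Nfkbia to Rela was 0.725 and 0.85 in Jagged1 cells, against 0.626 and 0.619 in vector cells. That of Nfkbie to Rela was 0.494 and 0.482 in Jagged1 cells, against 0.464 and 0.441 in vector cells. The third pair, Birc3 to Traf1, rests on the low counts of Traf1. With 2 libraries against 2 the smallest two-sided p of an exact permutation test is 0.333, so none of these was tested. The Tnfaip3 to Rela ratio overlapped, at 1.67 and 1.40 in Jagged1 cells and 1.21 and 1.77 in vector cells.

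Other pathway genes with a wide spread between the Jagged1 libraries, picked after their values were seen, were Ikbke, an IKK-related kinase gene of interferon and NF-kB signalling, and Tnip1, whose product binds TNFAIP3. Ikbke was at 32.5 and 95.3 CPM in Jagged1 cells, against 71.6 and 113 CPM in vector cells. Tnip1 was at 57.7 and 131 CPM in Jagged1 cells, against 96.3 and 99.4 CPM in vector cells. In both genes Jagged1 1 was the lowest library, as it was for 7 of the 10 subunit and feedback genes.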
